A study of Mus musculus with 6 samples.

Results

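The genes of major histocompatibility complex (MHC) class I antigen presentation were examined in subcutaneous white fat of mice, the depot that lies beneath the skin. The group holds 10 genes of the 36144 rows of the deposited expression table, chosen by name, and each name stood on a single row. It comprises the class I heavy chains H2-K1 and H2-D1, the light chain B2m, the peptide transporter subunits Tap1 and Tap2, the loading factor Tapbp, the immunoproteasome subunits Psmb8, Psmb9 and Psmb10, and the transactivator Nlrc5. Poly-A RNA from 6 libraries was compared, 3 titled Tumor and 3 titled WT, each described as a biological replicate. Nothing states whether each came from its own animal, and p-values measure only the spread between these samples. The labels disagree on what separates the groups. The genotype label gives the Tumor libraries as MSRA full-body KO and the WT libraries as MSRA WT, all 6 carry the treatment label Orthotopic transplant, and the design text has pancreatic ductal adenocarcinoma cells placed in both kinds of host, with fat taken 4 to 5 weeks later. The series title instead sets mice with a pancreatic tumour against controls without one. The sources used here give no strain, age, sex, tumour cell line or knockout allele. Msra, the gene named by the genotype label, measured 52.9, 40.0 and 26.9 TPM across the Tumor libraries, against 51.1, 59.1 and 56.3 TPM across the WT libraries, so its transcript was present in every library labelled as knockout. A sum over a whole gene does not show whether an exon is missing. All directions below therefore compare the libraries by title, as labelled Tumor and labelled WT.

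MHC class I molecules carry peptides from inside a cell to its surface, where CD8+ T cells and natural killer cells inspect them. The proteasome cuts proteins into peptides, the TAP transporter moves them into the endoplasmic reticulum, and tapasin helps them into the groove of the heavy chain. The complex of heavy chain, light chain and peptide then leaves for the surface. Nearly all nucleated cells make class I molecules, lymphocytes make much of them, and interferons raise most genes of the pathway, partly through NLRC5, which acts on class I promoters.

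Levels are given as TPM, a length-corrected share of the library's transcripts. Read totals are therefore not known, and a higher share of one transcript lowers the others. Between 13077 and 14253 genes reached 1 TPM in a library. Summed over the 6 adipocyte markers (Adipoq, Plin1, Cidec, Lep, Fabp4 and Pparg) the level was 19481, 13574 and 5213 TPM in the Tumor libraries and 13172, 16083 and 23944 TPM in the WT libraries, none of the markers being at 0. Lymphoid transcripts set the libraries apart across the groups. The 7 B cell markers (Cd79a and Cd79b, the signalling chains of the B cell receptor, among them) summed to 10.6, 1509 and 2215 TPM in the Tumor libraries and to 887, 718 and 4.49 TPM in the WT libraries, the 8 T cell markers to 17.6, 611 and 1507 TPM in Tumor and to 988, 675 and 11.4 TPM in WT. The 5 markers of lymph node stroma and high endothelium (Glycam1, Madcam1, Ccl21a, Cxcl13 and Ccl19) split the libraries the same way. They summed to 58.0, 1672 and 3428 TPM in Tumor and to 2043, 2300 and 46.3 TPM in WT. Whether lymph node was taken with the fat was not tested. Tumor replicate 1 and WT replicate 3 are called lymphoid-poor below and the other 4 libraries lymphoid-rich. The 3 skeletal muscle markers (Acta1, Ckm and Myh4) summed to 936, 301 and 1210 TPM in the Tumor libraries and to 1.32, 1272 and 3.07 TPM in the WT libraries. The identifiers of the groups come from separate number ranges, so a batch that ran along with them cannot be told apart from the comparison. In such bulk tissue more cells of a type and more RNA per cell cannot be told apart.

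Of the 10 genes, 7 lie on chromosome 17 within or beside the H2 complex (GRCm38, GENCODE M21). In order these are Tapbp (33915899 to 33929292), H2-K1 (33996017 to 34000347), Psmb9 (34181987 to 34187764), Tap1 (34187553 to 34197225), Psmb8 (34197721 to 34201454), Tap2 (34203527 to 34216321) and H2-D1 (35262730 to 35267499). B2m lies on chromosome 2 (122147686 to 122153083), and Nlrc5 (94434356 to 94527272) and Psmb10 (105935735 to 105938444) lie on chromosome 8. Psmb9 and Tap1 run in opposite directions, and their annotated ends overlap. B2m overlaps Patl2 on the other strand, and Tapbp overlaps the protein-coding Zbtb22 on the same strand. Tapbp, Tap2, Psmb8, Psmb10 and Nlrc5 also overlap annotated non-coding genes, and H2-K1 and H2-D1 overlap none. The titles name the forward strand, but how the authors' counting treated strand is not given, so reads from such overlaps cannot be assigned here.

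The promoters are shown because H2-K1 and H2-D1 share most of their upstream sequence yet differed between the libraries, and because Tap1 and Psmb9 share a single region. RefSeq windows (GRCm38.p6, 250 bases before the start and 50 after) were found for 8 of the 10 genes, all but Tap2 and Nlrc5. Sequences are 5′ to 3′ on the gene's strand, and capitals mark matches on either strand to 4 motifs: GGGA followed by any 4 bases and CC, a form of the kappaB site, GAAA followed by any 2 bases and GAAA, the usual consensus of the interferon-stimulated response element (ISRE), GAANNGAAA, a form of it that is 1 base shorter, and the CCAAT box. The first of 2 listed windows is shown for H2-K1. The windows are H2-K1 at chr17:34000298-34000597 (minus strand), H2-D1 at chr17:35262844-35263143 (plus), B2m at chr2:122147437-122147736 (plus) and Tap1 at chr17:34187306-34187605 (plus).
H2-K1: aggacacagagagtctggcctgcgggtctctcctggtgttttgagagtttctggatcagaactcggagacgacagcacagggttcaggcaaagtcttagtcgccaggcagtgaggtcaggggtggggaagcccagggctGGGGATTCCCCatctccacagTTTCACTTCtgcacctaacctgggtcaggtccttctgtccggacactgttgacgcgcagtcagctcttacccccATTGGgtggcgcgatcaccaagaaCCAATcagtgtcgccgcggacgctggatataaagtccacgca
H2-D1: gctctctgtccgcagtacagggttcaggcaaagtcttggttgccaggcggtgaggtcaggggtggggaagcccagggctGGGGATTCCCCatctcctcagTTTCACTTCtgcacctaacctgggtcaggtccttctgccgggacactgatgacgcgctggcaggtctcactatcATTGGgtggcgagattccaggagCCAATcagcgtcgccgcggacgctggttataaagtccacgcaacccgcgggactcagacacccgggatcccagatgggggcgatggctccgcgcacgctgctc
B2m: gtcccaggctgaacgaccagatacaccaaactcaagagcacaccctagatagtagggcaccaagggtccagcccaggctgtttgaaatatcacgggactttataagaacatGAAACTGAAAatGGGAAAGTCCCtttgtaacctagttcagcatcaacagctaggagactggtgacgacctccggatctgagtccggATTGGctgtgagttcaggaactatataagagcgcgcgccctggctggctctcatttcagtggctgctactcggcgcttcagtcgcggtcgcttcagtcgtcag
Tap1: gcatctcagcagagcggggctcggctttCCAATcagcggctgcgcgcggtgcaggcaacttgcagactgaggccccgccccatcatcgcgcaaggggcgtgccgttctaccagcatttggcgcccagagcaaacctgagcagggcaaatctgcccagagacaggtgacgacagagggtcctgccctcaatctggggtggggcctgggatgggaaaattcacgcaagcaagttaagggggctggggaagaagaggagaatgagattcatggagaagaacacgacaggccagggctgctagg

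The H2-K1 and H2-D1 windows were identical at 89.5% of 239 aligned bases. Both hold the kappaB letters followed by the shorter ISRE form, which begin 111 and 90 bases before the annotated start in H2-K1 and 171 and 150 bases before it in H2-D1. These distances rest on the annotated starts, and H2-K1 has 2 listed windows. In H2-K1 a CCAAT box lies after the annotated start (bases 9 to 13), whereas in H2-D1 both such boxes lie before it. B2m holds the ISRE consensus 139 bases and the kappaB letters 127 bases before its start. Tap1 holds only a CCAAT box, 222 bases before its start. The starts of Tap1 and Psmb9 are 226 bases apart on opposite strands, and their windows share 275 identical bases, so that the same box lies 8 bases before the start of Psmb9. The ISRE consensus was found in 1 of the 8 windows, against 3.49% of 27025 RefSeq promoter windows, and the shorter form in 2 of 8, against 7.56%. The kappaB letters were found in 3 of 8 (20.5% of all windows) and the CCAAT box in 6 of 8 (37.9%). The 8 windows are not independent, so these counts cannot be weighed against the shares of all windows. The CCAAT box shared by Tap1 and Psmb9 is counted for both, and the H2-K1 and H2-D1 windows are largely alike. Another motif searched, TTCNNNGAA, the GAS element of interferon gamma signalling, was found in 1 of 8, that of Psmb8 (8.47%). These matches describe letters in a window and show no binding.

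The class I molecule itself was among the most abundant products of the tissue. B2m ranked between 17 and 30 among all rows over the 6 libraries, H2-K1 between 20 and 32, and H2-D1 between 52 and 95. The processing genes stood far lower, with Tapbp at 161 to 219 TPM and Nlrc5 at 28.7 to 112 TPM. The summed TPM of the 10 genes was 10193, 11193 and 11959 in the Tumor libraries and 9961, 9361 and 8301 in the WT libraries, and these sums did not overlap. Divided by median-ratio factors, which set the typical gene equal between libraries, they were 9584, 9906 and 10795 in Tumor and 9893, 10786 and 8794 in WT, and overlapped. The sum is set by the 3 most abundant members.

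H2-D1, a classical class I heavy chain, stood at 1811, 1814 and 1763 TPM in the Tumor libraries, against 1510.0, 1457 and 1517 TPM in the WT libraries. All 3 Tumor libraries were above all 3 WT libraries, and the spread within a group was small. The means were 1796 ± 29.1 and 1495 ± 32.6 TPM (SD, n = 3 each), 1.20-fold higher in Tumor, and the log2 difference was 0.26 (SE 0.21, limma adjusted p = 0.749). An exact permutation test on this gene gave p = 0.1, the smallest that 3 against 3 allows. The limma error is wider than the gene's own spread (SD 0.023 and 0.032 on the log2 scale in Tumor and WT), because limma draws it toward the spread of genes of like level.

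B2m, the light chain that every class I heavy chain needs, followed the same order. It stood at 4515, 4298 and 4051 TPM in the Tumor libraries, against 3749, 3302 and 3634 TPM in the WT libraries, again without overlap. Its log2 difference was 0.27 (SE 0.24, limma adjusted p = 0.769, exact permutation p = 0.1). The share of TPM in mitochondrial transcripts also separated the groups, at 13.2%, 12.3% and 8.52% in the Tumor libraries and 14.7%, 14.9% and 18.6% in the WT libraries, and its part in the TPM of these genes was not tested. For neither gene did the lymphoid-poor libraries stand apart. B2m was highest in the lymphoid-poor Tumor replicate 1.

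The separation of H2-D1 and B2m depended on the scale of the libraries. With median-ratio factors H2-D1 was 1703, 1606 and 1591 scaled TPM in Tumor and 1500, 1679 and 1607 in WT, and the groups overlapped. B2m was then 4245, 3804 and 3657 in Tumor and 3723, 3805 and 3850 in WT. The log2 differences were 0.03 for H2-D1 and 0.04 for B2m on that scale. Over all genes the median difference was 0.23 (log2) in TPM and 0.03 with these factors, so both genes lay close to the typical gene on each scale.

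H2-K1, the other classical heavy chain, behaved differently from H2-D1. It stood at 3208, 3893 and 4641 TPM in the Tumor libraries, against 3689, 3645 and 2591 TPM in the WT libraries. The lymphoid-poor library was the lowest of each group, and the groups overlapped. Its log2 difference was 0.24 (SE 0.30, limma adjusted p = 0.815). Similar sequence limits how well these genes can be told apart: 8.79% of 50-base windows of the longest H2-K1 transcript and 14.3% of those of H2-D1 occur exactly in a transcript of another gene, and how such reads were divided is not given. In B2m no such window was shared.

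Ratios within a library do not depend on scaling between libraries. H2-D1 over B2m was 0.401, 0.422 and 0.435 in the Tumor libraries and 0.403, 0.441 and 0.417 in the WT libraries, the narrowest of the 5 ratios computed. H2-K1 over B2m was 0.711, 0.906 and 1.15 in Tumor and 0.984, 1.10 and 0.713 in WT. The poor libraries, 1 in each group, had nearly equal values, 0.711 in Tumor and 0.713 in WT. The log2 difference between the groups was -0.0036 for H2-D1 over B2m and -0.024 for H2-K1 over B2m (exact permutation p = 0.9 for each, adjusted over the 5 ratios 0.9).

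**Figure D1:**
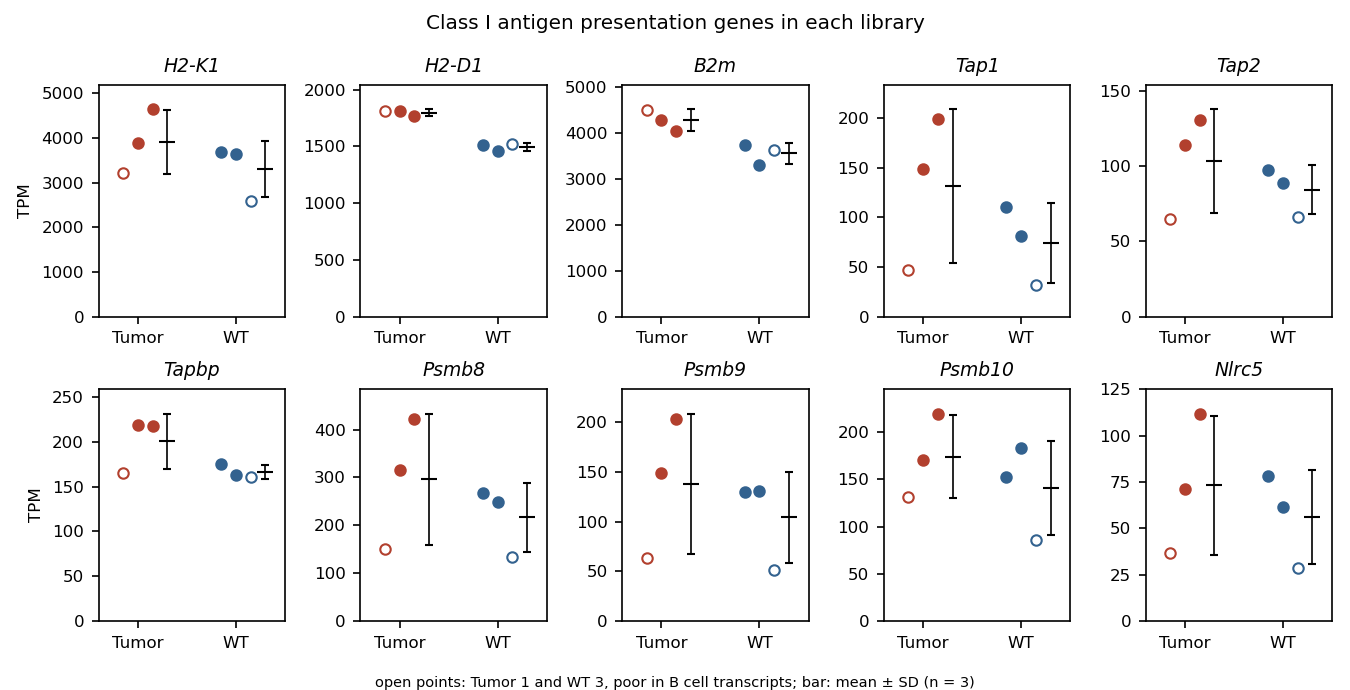
TPM of each of the 10 genes in the 3 Tumor (left) and 3 WT (right) libraries, on linear axes from 0, with the mean ± SD (n = 3) beside the points. Open points are Tumor replicate 1 and WT replicate 3, the libraries poor in B cell transcripts. For H2-D1 and B2m the groups do not overlap, while for every other gene the open point is the lowest of its group.

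Tap1, which with Tap2 forms the pump that carries peptides into the endoplasmic reticulum, varied most of the 10 genes, with a 6.32-fold range between the highest and the lowest library. It stood at 47.0, 149 and 199 TPM in the Tumor libraries, against 111, 80.8 and 31.5 TPM in the WT libraries. The groups overlapped only through the lymphoid-poor Tumor replicate 1. The mean was 1.77-fold higher in Tumor, and the log2 difference was 0.76 (SE 0.68, 95% confidence interval -0.91 to 2.43, limma adjusted p = 0.769). Without Tumor replicate 1 it was 1.37, and without WT replicate 3 it was 0.24.

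Tap2, the partner subunit, ranged less, 2.02-fold. It stood at 64.8, 114 and 131 TPM in the Tumor libraries, against 97.5, 89.0 and 66.1 TPM in the WT libraries, and the log2 difference was 0.25 (SE 0.31, limma adjusted p = 0.819). Its lowest value was in Tumor replicate 1. Tapbp, which encodes tapasin, the bridge between the transporter and the empty heavy chain, stood at 165, 219 and 217 TPM in the Tumor libraries and at 175, 163 and 161 TPM in the WT libraries. The groups overlapped through Tumor replicate 1 alone, and the log2 difference was 0.26 (SE 0.18, limma adjusted p = 0.737).

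The immunoproteasome subunits replace the constitutive catalytic subunits and change which peptides are cut. Psmb8 stood at 150.3, 315 and 423 TPM in the Tumor libraries, against 268, 248 and 134 TPM in the WT libraries. Psmb9, which shares its promoter region with Tap1, stood at 63.2, 149 and 203 TPM in Tumor and at 130.2, 131 and 51.7 TPM in WT. In both genes the lymphoid-poor library of each group was lowest, and the groups overlapped. Psmb10 stood at 132, 170.3 and 219 TPM in Tumor and at 153, 183 and 86.0 TPM in WT, and WT replicate 2 lay above Tumor replicates 1 and 2. For Psmb10 too the lymphoid-poor library of each group was lowest. The log2 differences were 0.39 (SE 0.46) for Psmb8, 0.37 (SE 0.56) for Psmb9 and 0.34 (SE 0.34) for Psmb10, with limma adjusted p-values of 0.812, 0.842 and 0.787. Without Tumor replicate 1 they were 0.81 for Psmb8, 0.85 for Psmb9 and 0.53 for Psmb10, and without WT replicate 3 they were 0.07, -0.07 and 0.02. Without Tumor replicate 3 they were 0.07, 0.02 and 0.16.

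Each immune subunit was also set against the constitutive subunit whose place it takes. Psmb8 over Psmb5 was 0.953, 2.31 and 3.29 in the Tumor libraries, against 1.59, 1.44 and 0.799 in the WT libraries. Psmb9 over Psmb6 was 0.272, 0.711 and 1.09 in Tumor and 0.608, 0.585 and 0.241 in WT. Psmb10 over Psmb7 was 0.886, 1.17 and 1.81 in Tumor and 1.01, 1.19 and 0.496 in WT. In all 3 ratios the highest library was Tumor replicate 3 and the lowest WT replicate 3, which were also the libraries with the most and the least B cell transcripts. The log2 differences were 0.66, 0.43 and 0.55 (exact permutation p = 0.4, 0.5 and 0.5, adjusted over the 5 ratios 0.833 each), so none was larger than the spread between replicates. Psmb5 is uncertain here, since 57.1% of its 50-base windows occur in other genes, led by Gm3375.

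**Figure D2:**
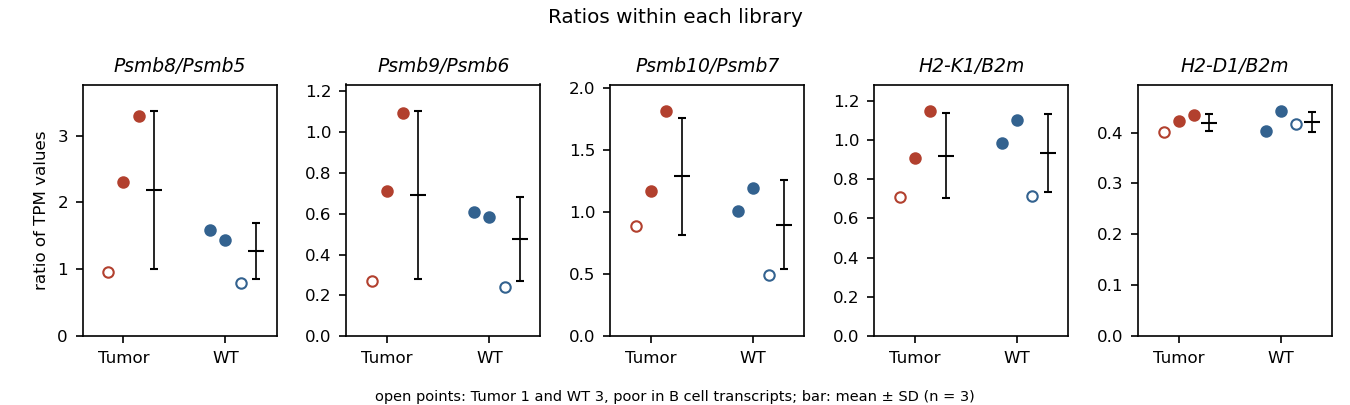
Ratios of TPM values within each library, for the 3 immunoproteasome subunits over the constitutive subunits and the 2 heavy chains over B2m, Tumor left of WT, with the mean ± SD (n = 3). Open points are the libraries poor in B cell transcripts. H2-D1 over B2m lies between 0.401 and 0.441 in every library, while Psmb8 over Psmb5 runs from 0.799 to 3.29.

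Nlrc5, the transactivator of class I genes, stood at 36.7, 71.2 and 112 TPM in the Tumor libraries, against 78.2, 61.3 and 28.7 TPM in the WT libraries. WT replicate 1 was above Tumor replicates 1 and 2, so the groups overlapped. The log2 difference was 0.36 (SE 0.53, limma adjusted p = 0.839), and leaving out Tumor replicate 1 gave 0.78, leaving out WT replicate 3 gave -0.06 and leaving out Tumor replicate 3 gave -0.02. Between the highest and lowest library Nlrc5 ranged 3.90-fold and Psmb9 3.93-fold, against 1.24-fold for H2-D1 and 1.37-fold for B2m.

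As a group, 0 of the 10 genes passed the test, against 0 of 14144 genes tested (0%) with limma at an adjusted p below 0.05. At an unadjusted p below 0.05 the count was also 0 of 10, against 530 higher (3.75%) and 241 lower (1.7%) among all genes, and the adjusted p-values of the 10 ran from 0.737 to 0.842. All 10 had a positive log2 difference, as did 76.8% of all genes. Their median was 0.31, against 0.23 over all genes. This order depended on single libraries. Without WT replicate 3 the median of the 10 was 0.08, against 0.20 over all genes, and without Tumor replicate 3 it was 0.14, against 0.21. With median-ratio factors the medians of the 10 and of all genes were 0.08 and 0.03, and 10 of 10 were positive, against 54.2% of all genes. On that scale the 10 differences ran from 0.015 (H2-K1) to 0.53 (Tap1). H2-K1, Tap2 (0.021) and Tapbp (0.027) lay below the median of all genes (0.029) and the other members above it. Members whose levels vary together do not give independent signs. With upper-quartile factors 10 of 10 were also positive, against 58% of all genes. All 3 Tumor libraries were above all 3 WT libraries for 2 of 10 genes, H2-D1 and B2m, against 11.8% of all genes, and all 3 were below for 0 of 10, against 3.24%. The separated count with median-ratio or upper-quartile factors was 0 of 10, against 3.52% and 4.5%. In TPM, leaving out Tumor replicate 1 gave 8 of 10, against 34.3% of all genes, and leaving out WT replicate 1 gave 3 of 10, against 23.6%.

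The lymphoid-poor and the lymphoid-rich libraries were also compared among themselves, though lymphoid content was not equal in either set. Between the lymphoid-poor libraries, 9 of the 10 genes were higher in Tumor replicate 1 than in WT replicate 3, against 68.2% of all genes. The ratio of Tumor replicate 1 to WT replicate 3 ran from 1.03 for Tapbp to 1.53 for Psmb10, Tap2 being the exception at 0.980. Tumor replicate 1 also held more B cell (10.6 against 4.49 TPM), macrophage (1199 against 596 TPM) and muscle transcripts (936 against 3.07 TPM) than WT replicate 3. Among the 4 lymphoid-rich libraries all 10 differences were positive, against 74.7% of all genes. There both Tumor libraries were above both WT libraries for 8 of 10 genes, all but Psmb10 and Nlrc5, against 40.9% of all genes, and these Tumor libraries also held more B cell transcripts (1509 and 2215 TPM in Tumor, 887 and 718 TPM in WT). With the mean level of the B cell markers as a covariate the median of the 10 was 0.22, all 10 were positive (76.9% of all genes), and the difference of Tap1 was 0.49 (SE 0.16, limma adjusted p = 0.361). With the macrophage markers as a covariate the median was 0.73, against 0.24 over all genes, and 7 of 10 were positive with an unadjusted p below 0.05, against 20.6% of all genes, with 0 past the adjusted threshold. The part of lymphoid cells in these differences was not tested beyond these fits.

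**Figure D3:**
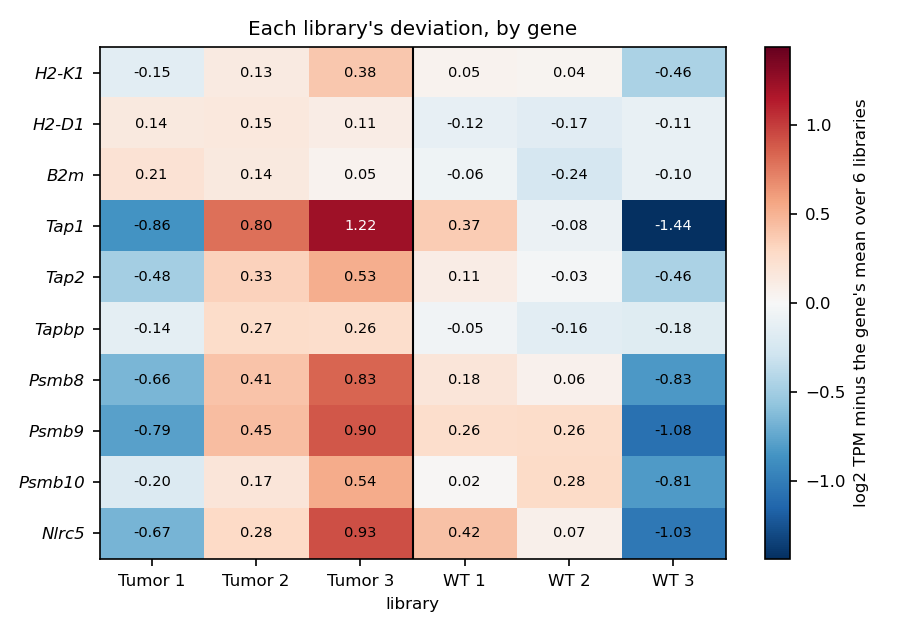
Deviation of each library from the gene's own mean over 6 libraries, in log2 TPM, with Tumor libraries left of the line and WT libraries right of it. Tumor replicate 1 and WT replicate 3 are below the mean for Tap1 (-0.86 and -1.44) and Psmb9 (-0.79 and -1.08), but for H2-D1 the sign follows the group (0.14, 0.15 and 0.11 in Tumor, -0.12, -0.17 and -0.11 in WT).

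**Figure D4:**
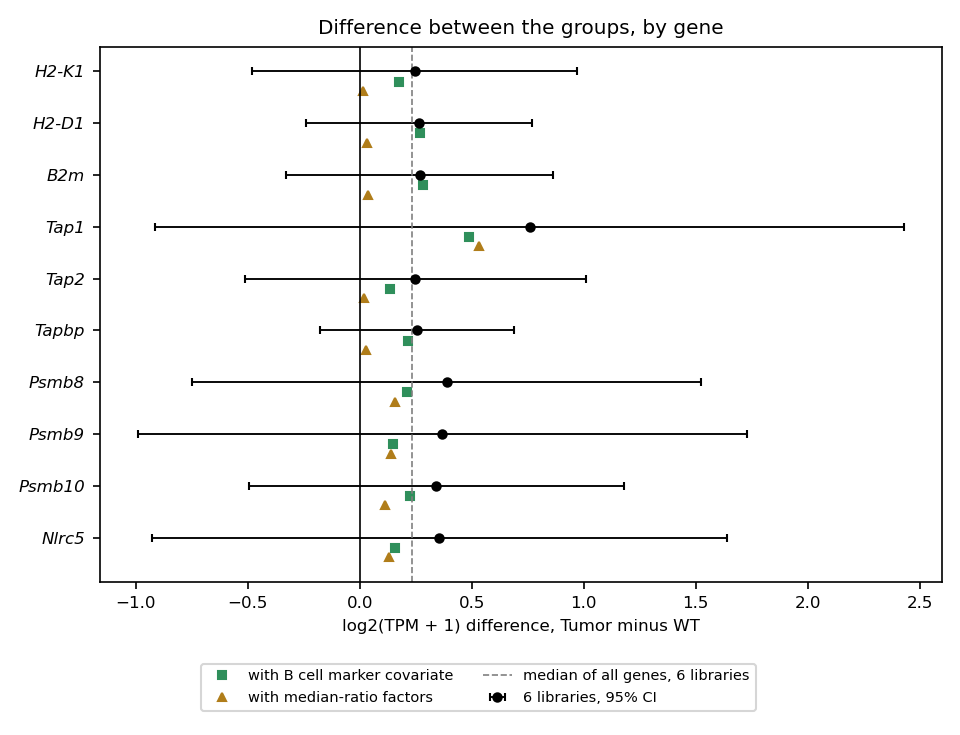
Difference between Tumor and WT on the log2(TPM + 1) scale for each gene, as estimated by limma with its 95% confidence interval (black circles and bars). Green squares are the estimates with the B cell markers as a covariate and ochre triangles those with median-ratio factors, both without intervals. The dashed line is the median of all genes, 0.23. All 10 black intervals include 0. The dashed line belongs to the black circles. With median-ratio factors the median of all genes is 0.03.

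Over the 6 libraries, a gene's profile was set beside the mean standardised profile of the other members, as a description over libraries that fall into 4 rich and 2 poor in lymphoid transcripts. Tap1 was most like the rest (Pearson r = 0.97, n = 6 libraries), followed by H2-K1 (0.95) and Psmb8 (0.93). H2-D1 (0.43) and B2m (0.24) were least like it. Of 10925 other genes with a mean of at least 5 TPM, the 5 closest to the mean profile of the 10 were Ifi203, Dek, Tnfrsf22, Zfp956 and Smchd1, and 802 genes had an r above 0.95. Ifi203, of the interferon-inducible p200 family, stood at 46.9, 99.3 and 136 TPM in the Tumor libraries, against 65.4, 55.9 and 27.8 TPM in the WT libraries. Dek, a chromatin protein, stood at 45.9, 74.3 and 85.6 TPM in Tumor and at 56.6, 48.2 and 31.2 TPM in WT.

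Of 13 other class I heavy chains listed, 10 passed the filter on low values and were tested, 9 had a positive difference and 0 passed. Of all genes 76.8% were positive. All Tumor libraries were above all WT libraries for 1 of the 10 tested (11.8% of all genes) and below for 1 (3.24%). H2-Q7, H2-Q6 and H2-T23, which encode Qa-2 and Qa-1 molecules, were lowest of their group in the lymphoid-poor library. H2-Q7 stood at 89.3, 354 and 544 TPM in the Tumor libraries, against 353, 298 and 77.0 TPM in the WT libraries. For H2-T22, a ligand of gamma delta T cells, the groups did not overlap in TPM, with 181, 215 and 194 in Tumor and 155, 145 and 153 in WT. Its log2 difference was 0.37 (SE 0.15, limma adjusted p = 0.737), and its order with median-ratio factors is not reported here. H2-Q10, a secreted class I molecule best known from mouse liver, was the exception in direction. It stood at 70.1, 88.5 and 46.6 TPM in the Tumor libraries, against 114, 131 and 203 TPM in the WT libraries, without overlap, and the log2 difference was -1.12 (SE 0.32, limma adjusted p = 0.737). Shared sequence is high in several of these genes, at 44.7% of 50-base windows in H2-T22 and 34.9% in H2-Q7, against 8.03% in H2-Q10.

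The other genes of peptide supply showed no call in either direction. In peptide loading and trimming (Calr, Canx, Pdia3, Erap1, Tapbpl, Hspa5 and Lnpep) 7 of 7 were positive, with a median of 0.29, and 0 of 7 passed. Over all genes 76.8% were positive and the median was 0.23. Pdia3, the oxidoreductase of the loading complex, was 230, 184 and 202 TPM in Tumor and 165, 148 and 175 TPM in WT. It and Lnpep were higher in all Tumor than in all WT libraries, 2 of 7 genes, against 11.8% of all genes. Of the constitutive catalytic subunits all 3 were negative, with a median of -0.21, and 0 of 3 passed. Psmb5 was 158, 136 and 128 TPM in Tumor and 168, 173 and 167 TPM in WT. Psmb5 and Psmb7 were lower in all Tumor than in all WT libraries, 2 of 3 genes, against 3.24% of all genes. These separations are in TPM. With median-ratio factors the median was 0.061 for peptide loading and -0.43 for the constitutive subunits. The 11 other subunits of the 20S core had a median of -0.03, with 4 positive and 7 negative and 0 of 11 called. Among them 1 was higher and 1 lower in all Tumor than in all WT libraries. In the proteasome activator list the median was 0.14 over 4 genes, all positive. Psme1, the alpha subunit of PA28, stood at 151, 255 and 369 TPM in Tumor and at 256, 260.5 and 143 TPM in WT, with the lymphoid-poor library lowest in each group.

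Of the 18 regulators of the pathway 17 were positive, with a median of 0.50, and 0 passed. Over all genes 76.8% were positive and the median was 0.23. With median-ratio factors the median of the regulators was 0.28, against 0.03 over all genes. Stat2, a transcription factor of type I interferon signalling, stood at 51.3, 63.5 and 57.0 TPM in the Tumor libraries, against 40.5, 30.3 and 33.3 TPM in the WT libraries. The groups did not overlap, and the log2 difference was 0.71 (SE 0.17, limma adjusted p = 0.737). Ifngr1, the ligand-binding chain of the interferon gamma receptor, also separated the groups, with 209, 195 and 187 TPM in Tumor and 141, 154 and 175 TPM in WT. Irf1, a transcription factor induced by interferon, did not, with 57.3, 102 and 144 TPM in Tumor and 112, 89.2 and 57.7 TPM in WT. Only Stat2 and Ifngr1 had all Tumor above all WT libraries, 2 of 18 regulators, close to the 11.8% of all genes. These separations are in TPM. With median-ratio factors 3.52% of all genes separated in this direction, and the order of Stat2 and Ifngr1 on that scale is not reported here. Interferon-response genes outside the pathway, listed with their earlier results known, had a median of 1.18 over 10 genes, and in 9 of the 10 all Tumor libraries were above all WT libraries, against 11.8% of all genes, with 0 past the adjusted threshold. Since the list was chosen with its results known, nothing is read from that count.

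The MHC class II genes, which present peptides taken up from outside the cell, had a median of 0.76 over 7 genes, all positive, with 0 of 7 called. Over all genes 76.8% were positive and the median was 0.23. With median-ratio factors the class II median was 0.53, against 0.03 over all genes. Cd74, the invariant chain, stood at 1104, 3553 and 5303 TPM in the Tumor libraries, against 2484, 2260 and 825 TPM in the WT libraries, with the lymphoid-poor library lowest in each group. Among receptors that bind class I molecules on killer cells, 5 of 6 were tested and 0 called. Cd8a was 0.742, 47.2 and 115 TPM in Tumor and 84.7, 45.9 and 0.343 TPM in WT. Cd8a was thus below 1 TPM in both lymphoid-poor libraries, in which H2-D1 stood at 1811 TPM (Tumor replicate 1) and 1517 TPM (WT replicate 3).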

How the data were processed

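The 6 libraries were mapped to columns by their description labels. The authors deposited 1 table. Its name says raw counts, yet the authors made its values as TPM (fractional values summing to 1000000 per deposited column), so limma took the place of a count test. The submitters' processing notes name the build GRCm38.p6 and the tool DESeq2 without a version or role. The aligner, the quantifier and the annotation release behind the TPM values were not given in the sources used here. Per the labels' protocols RNA integrity numbers were above 7 and poly-A RNA was used.

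limma 3.58.1 (R 4.3.3, mean-variance trend, robust moderation, group alone) was fitted on log2(TPM + 1) for 14144 genes reaching 1 TPM in 3 or more libraries, with p-values adjusted by Benjamini and Hochberg (threshold 0.05). Differences on this scale understate changes of low genes. Ratios were tested by exact permutation, whose smallest p is 0.1. The fit was tested on simulated data. Members and lists were chosen with earlier results of these data known. All 10 members were named, with the highest-expressed genes of each list, Msra, the 5 genes of closest profile, and genes singled out after their values were seen (H2-Q10, H2-T22, Stat2, Irf1, Lnpep). Macrophage markers other than C1qa were also named after their values were seen. Single values of some listed genes are not reported here. Coordinates are from GENCODE M21 (GRCm38), promoters from RefSeq (GRCm38.p6). Precision rests on 3 libraries per group. Alternatives were other pseudocounts, filters, scalings, limma settings, covariates, the replicate block, the 4 lymphoid-rich libraries and leaving out each library. The set of Tumor replicate 1 against WT replicate 3, the scaled sums and the ISRE consensus search were chosen after seeing the data. Same-numbered libraries did not deviate together in every pair, so replicate numbers were not taken as pairs. Python 3.11.15, pandas 2.3.3, numpy 2.4.6, matplotlib 3.10.9 and Biopython 1.88 were used.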

Additional observations from a re-analysis of the deposited data

How the results depend on the processing

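No member was called under any of the 18 alternatives run, and with the B cell marker covariate 1 gene of all tested was called. The median of the 10 genes stayed positive, from 0.08 to 0.73, but did not always exceed that of all genes. Without WT replicate 3 it was 0.082, against 0.20 over all genes, with 8 of 10 positive, against 10333 of 14144 genes. Without Tumor replicate 3 it was 0.14, against 0.21, with 9 of 10 positive, against 10857 of 14144. In the other alternatives it lay above the median of all genes. Genes with all Tumor above all WT libraries numbered 0 with median-ratio and upper-quartile factors, 8 in the 4 lymphoid-rich libraries, where fewer libraries are compared (40.9% of all genes), and 2 to 8 when each library was left out (8 without Tumor replicate 1, against 34.3% of all genes, and 3 without WT replicate 1, against 23.6%). With median-ratio and upper-quartile factors the medians were 0.061 and 0.092 for peptide loading, -0.43 and -0.40 for constitutive catalytic subunits, -0.079 and -0.049 for the proteasome activator, and -0.26 and -0.23 for other 20S subunits. With the macrophage covariate they were 1.43 for class I heavy chains, -0.33 for constitutive catalytic subunits, 0.46 for the proteasome activator, 1.01 for regulators, 1.76 for class II and 2.38 for killer-cell receptors. For these covariates the cause was not tested. When each library was left out, the medians ran from -0.064 to 0.31 for the proteasome activator (-0.064 without Tumor replicate 3, -0.049 without WT replicate 3), from -0.083 to 0.0051 for other 20S subunits (0.0051 without WT replicate 1), and from -0.34 to 1.65 for killer-cell receptors (-0.021 without Tumor replicate 3, -0.34 without WT replicate 3). Psmb9 ran from -0.072 (without WT replicate 3) to 0.85 and Nlrc5 from -0.059 (without WT replicate 3) to 0.78, with Nlrc5 at -0.016 without Tumor replicate 3. The log2 ratio difference of Psmb9 over Psmb6 ran from -0.0039 to 0.998 (-0.0039 without Tumor replicate 3, -0.0022 without WT replicate 3), of H2-K1 over B2m from -0.21 to 0.15 (0.15 without Tumor replicate 1, 0.026 without WT replicate 1, 0.11 without WT replicate 2), and of H2-D1 over B2m from -0.034 to 0.032 (0.028 without Tumor replicate 1, 0.032 without WT replicate 2, and 0.023 in the 4 lymphoid-rich libraries).

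Libraries share replicate numbers only: deviations of same-numbered libraries correlated at -0.76, 0.20 and -0.84 over 14144 genes. With the replicate number as a block, which cannot move the estimates in this balanced design (median 0.31), 0 were called (adjusted p = 0.985 for each). By the same construction the ratio differences under the block are 0.66 for Psmb8 over Psmb5, 0.43 for Psmb9 over Psmb6, 0.55 for Psmb10 over Psmb7, -0.024 for H2-K1 over B2m and -0.0036 for H2-D1 over B2m. Read depth is not known, so that no counting error can be given.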

Other observations

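The summed macrophage markers were highest in the lymphoid-poor library of each group, but not every marker was. The 7 macrophage markers summed to 1199, 613 and 576 TPM in the Tumor libraries and to 543, 547 and 596 TPM in the WT libraries. C1qa, a complement component made by macrophages and the most abundant of these markers, stood at 597, 329 and 315 TPM in Tumor and at 325, 349 and 356 TPM in WT. Adgre1, Csf1r, Mrc1 and Cd163 were likewise highest in the lymphoid-poor library of each group. Cd68 was highest in Tumor replicate 1 (269 TPM) but lowest of the WT libraries in WT replicate 3 (59.2 TPM). Siglec1 was lowest of its group in both, at 20.7 TPM in Tumor replicate 1 and 8.26 TPM in WT replicate 3.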
